A study of Brassica napus with 2 samples.

Results

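RNA of whole seeds from the yellow-seeded *Brassica napus* line Cy2Y (genotype *YY*) was set against that of its brown-seeded near-isogenic line Cy2B (genotype *yy*), and the transcripts described here are those of the late flavonoid branch. The branch comprises 4 enzymes, dihydroflavonol 4-reductase (DFR), leucoanthocyanidin dioxygenase (LDOX), anthocyanidin reductase (BAN) and flavonol synthase (FLS). A unigene, which is a transcript assembled *de novo* from the reads of both libraries, was taken into the branch when the authors had assigned it a *B. napus* gene and its best Swiss-Prot hit was described as a dihydroflavonol reductase, a leucoanthocyanidin enzyme, an anthocyanidin reductase or a flavonol synthase. These words matched 21 of 50366 unigenes, and 18 of the 21 had an assigned gene. No unigene was described as leucoanthocyanidin reductase.

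Seeds of both lines came from untreated plants in the field and were 26 days old, counted from pollination in the study's methods (26 DAP) and from flowering in the labels. The lines differ at a seed colour locus, and both descended from 1 heterozygous plant that was self-fertilised over successive generations. There was 1 library per line, so no spread between seeds or plants could be computed, and neither labels nor methods say how many plants went into each. The reads counted in unigenes, fewer than were sequenced, came to 23236592 in yellow seeds and 23575447 in brown seeds. Of these, the 18 unigenes took 13380 in yellow and 11786 in brown seeds.

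Flavonoid synthesis divides at the dihydroflavonols. FLS oxidises them to flavonols, colourless compounds that screen ultraviolet light, whereas DFR reduces them to leucoanthocyanidins, LDOX oxidises these to anthocyanidins, and BAN reduces anthocyanidins to the epicatechin units of proanthocyanidins. Proanthocyanidins accumulate in the seed coat and brown on oxidation, and in Arabidopsis loss of DFR (*tt3*), LDOX (*tt18*) or BAN gives pale or yellow seeds, so these enzymes are known as *transparent testa* (*TT*) genes.

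For each unigene, Fisher's exact test (two-sided) set its reads against all other reads of the libraries, with p adjusted over all unigenes by the Benjamini-Hochberg method. A unigene was called when the adjusted p was under 0.05 and the log2 ratio of yellow over brown was above 1 or below -1. These limits correspond to a 2-fold difference. For the call, the ratio was that of scaled reads with none added. The log2 ratios printed below have 1 read added to each library, unless stated otherwise. Ratios carry 95% exact binomial intervals and transcription levels, in RPKM (reads scaled to the unigene's length and to the mapped reads of the library), carry 95% Poisson intervals. Both cover counting error only, and the test compares these libraries and not the lines.

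Of the 18 unigenes, 3 rose in yellow seeds, 1 fell and 14 were not called. Of all unigenes in the table, 3.28% were called higher and 1.47% were called lower, and of those with at least 20 reads 3.02% and 1.32%. The unigenes that rose were an LDOX-like unigene on C05, an FLS unigene on C09 and a low-level unigene described as DFR on A05, and the one that fell was a low-level FLS unigene on A06. The single unigenes that KEGG orthology assigned to DFR, LDOX and BAN had ratios from 0.760 to 0.892 and were not called.

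The 18 unigenes were not equally well identified. For 8 of them the KEGG orthology entry named the enzyme itself (1 DFR, 1 LDOX, 1 BAN and 5 FLS), and the deposited score of their best Swiss-Prot alignment, which grows with the aligned length and its similarity, was from 619 to 1792 with a median of 1228. The other 10 rested on the Swiss-Prot description alone, with scores from 121 to 640 and a median of 238. Only 6 unigenes belonged to genes in the study's list of *TT* orthologs, namely 1 of 3 listed *tt3* orthologs, none of 4 *tt18* orthologs, 1 of 5 *ban* orthologs and 4 of 7 *fls1* orthologs. *B. napus* carries related A and C subgenomes, and reads of copies without a unigene of their own may have been counted in the assembled copy, so each value may sum near-identical copies. The unigenes' assigned genes lay on A chromosomes for 9, on C chromosomes for 7 and on unplaced sequence for 2. Positions refer to the Darmor-bzh genome and span the whole assigned gene, introns included. The exons that a unigene covers are not given in the table.

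The DFR gene proper was transcribed at 37.4 RPKM (35.4 to 39.6, 1210 reads) in yellow seeds, against 43.1 RPKM (40.8 to 45.4, 1411 reads) in brown seeds. This unigene, comp41806_c0, was assigned to *BnaA09g15710D*, a *tt3* ortholog on A09 at 9168455 to 9170011 on the minus strand, and its best NR hit was dihydroflavonol 4-reductase of *B. juncea*. The ratio was 0.870 (0.805 to 0.940, adjusted p = 0.00393 by Fisher's exact test), a difference beyond counting error but under 2-fold.

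BAN was transcribed at 26.1 RPKM (24.3 to 28.0, 791 reads) in yellow seeds and 34.4 RPKM (32.3 to 36.5, 1056 reads) in brown seeds. Its unigene, comp48572_c0, lay in *BnaC04g18950D* on C04 at 18894002 to 18895401 on the minus strand. Of the unigenes with a KEGG orthology entry of DFR, LDOX or BAN it had the lowest ratio, 0.760 (0.692 to 0.834, adjusted p = 1.17e-07 by Fisher's exact test), and was not called.

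The unigene whose KEGG orthology entry was LDOX, comp54848_c1, had 22.5 RPKM (21.4 to 23.6, 1725 reads) in yellow seeds, against 25.2 RPKM (24.1 to 26.4, 1963 reads) in brown seeds, a ratio of 0.892 (0.835 to 0.952, adjusted p = 0.00508 by Fisher's exact test). Its best nucleotide hit was the anthocyanidin synthase (another name of LDOX) mRNA of *B. oleracea*, but its best NR hit was a cell cycle regulated microtubule associated protein. The unigene was 3301 bp long and its assigned gene, GSBRNA2T00126733001 on A08 at 9729854 to 9733139 on the plus strand, spanned 3286 bp. The annotations thus name different proteins on 1 unigene, and how many of its reads came from each cannot be told apart. Summed over the unigenes with a KEGG orthology entry of DFR, LDOX or BAN, the level was 86.0 RPKM in yellow seeds and 102.6 RPKM in brown seeds, and the ratio of the summed reads was 0.853.

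Among all members, the unigene with the most reads of those called was the LDOX-like comp48980_c0, with 44.2 RPKM (42.1 to 46.4, 1639 reads) in yellow seeds and 15.7 RPKM (14.5 to 17.1, 592 reads) in brown seeds. It rose 2.81-fold (2.56 to 3.09, log2 ratio 1.49, adjusted p = 1.02e-113 by Fisher's exact test) and ranked 2 among the 18 levels in yellow seeds and 6 in brown seeds. Its gene, GSBRNA2T00111020001, lay on C05 at 39535509 to 39538183 on the minus strand. The best NR hit was a leucoanthocyanidin dioxygenase-like protein of Arabidopsis, the Swiss-Prot score was 640, there was no KEGG orthology entry, and the gene was not in the list of *tt18* orthologs, so LDOX activity of its product is not given by these annotations. The remaining unigene described as LDOX, comp46521_c0 on C01 (15295075 to 15296372, plus strand), had 6.16 RPKM in yellow seeds and 7.17 RPKM in brown seeds, a ratio of 0.858 (0.707 to 1.04), and resembled naringenin 3-dioxygenase, a related oxygenase of an earlier step.

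**Figure D1:**
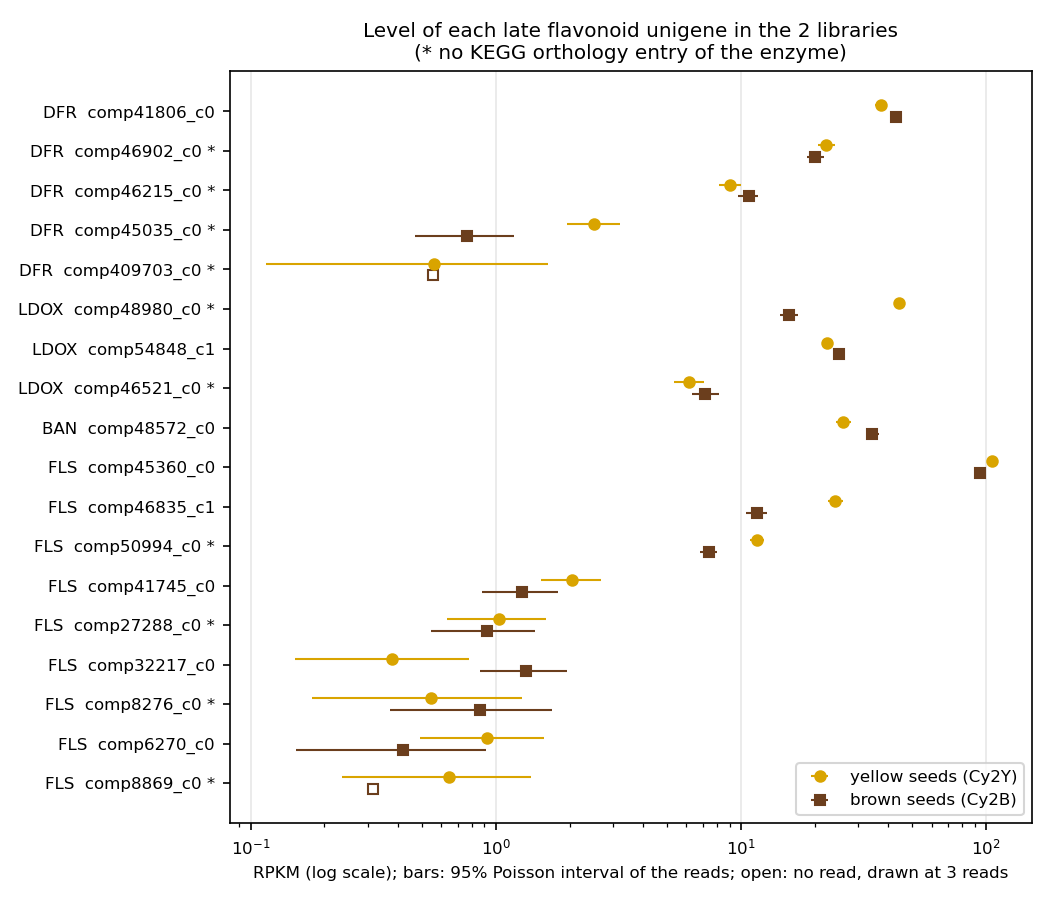
Transcription level of each unigene in RPKM on a log scale, with circles for yellow seeds (Cy2Y) and squares for brown seeds (Cy2B), 1 library each; bars are 95% Poisson intervals, open symbols mark no read and are drawn at the 3-read floor, and asterisks mark unigenes with no KEGG orthology entry of the enzyme. The A02 *FLS* unigene comp45360_c0 stands highest in both libraries (106 RPKM in yellow and 94.2 RPKM in brown seeds), and the LDOX-like comp48980_c0 shows the widest gap among unigenes above 10 RPKM in yellow seeds.

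FLS showed 5 unigenes with its KEGG orthology entry, and these did not move together. The highest of all 18 levels in both libraries was that of comp45360_c0, with 106 RPKM (103.3 to 109.3, 4826 reads) in yellow seeds and 94.2 RPKM (91.5 to 97.1, 4342 reads) in brown seeds. Its gene *BnaA02g33780D* on A02 (24212057 to 24214047, minus strand) is in the list of *fls1* orthologs, whereas its best NR and Swiss-Prot hits were flavonol synthase 3 of Arabidopsis, a close relative of the main enzyme FLS1. The ratio was 1.13 (1.08 to 1.18, adjusted p = 2.09e-07 by Fisher's exact test), so this unigene was not called.

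The *fls1* ortholog *BnaC09g47360D*, represented by comp46835_c1 on C09 (46750934 to 46753294, minus strand), had 24.3 RPKM (22.6 to 26.0, 805 reads) in yellow seeds, against 11.6 RPKM (10.5 to 12.8, 390 reads) in brown seeds. It rose 2.09-fold (1.85 to 2.37, adjusted p = 3.91e-33 by Fisher's exact test). Its log2 ratio of 1.06 was just inside the threshold, and the lower end of the interval was under 2-fold.

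The opposite direction was seen at *BnaA06g16790D*, an *fls1* ortholog on A06 (9442246 to 9443342, plus strand), where comp32217_c0 had 7 reads (0.377 RPKM, 0.152 to 0.778) in yellow seeds and 25 reads (1.33 RPKM, 0.860 to 1.96) in brown seeds. It fell to 0.284 of the brown level (0.104 to 0.676, log2 ratio -1.68, adjusted p = 0.0173 by Fisher's exact test). The call rested on 32 reads in all. The remaining *FLS* unigenes with a KEGG orthology entry were comp41745_c0 on C09 (3652977 to 3654955, minus strand) with 52 reads in yellow and 33 in brown seeds, a ratio of 1.60 (1.01 to 2.55, adjusted p = 0.163 by Fisher's exact test), and comp6270_c0 of *BnaCnng61390D* on unplaced sequence (98307751 to 98310027, minus strand) with 13 reads in yellow seeds and 6 in brown seeds. The unigene comp6270_c0 lay just inside the fold threshold, at a log2 ratio of 1.14 with no read added and 1.02 with 1 added. Its interval of 0.780 to 7.05 held 1, however, and its adjusted p was 0.324 by the same exact test.

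Summed over the 5 *FLS* unigenes, the level was 133.9 RPKM in yellow seeds and 108.8 RPKM in brown seeds, and the ratio of the summed reads was 1.21. The A02 unigene supplied 79.4% of that level in yellow and 86.6% in brown seeds, and the C09 unigene comp46835_c1 supplied 18.1% in yellow and 10.6% in brown seeds. Within each library, the summed *FLS* level was 3.58 times that of DFR in yellow seeds and 2.53 times in brown seeds. Against the sum of DFR, LDOX and BAN it stood at 1.56 in yellow and 1.06 in brown seeds. The C09 unigene comp46835_c1 alone stood below DFR, at 0.648 of its level in yellow and 0.269 in brown seeds. DFR over BAN was 1.43 in yellow and 1.25 in brown seeds. These ratios compare RPKM levels, which are per length of the unigene, and the LDOX unigene enters them with its second annotation.

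**Figure D2:**
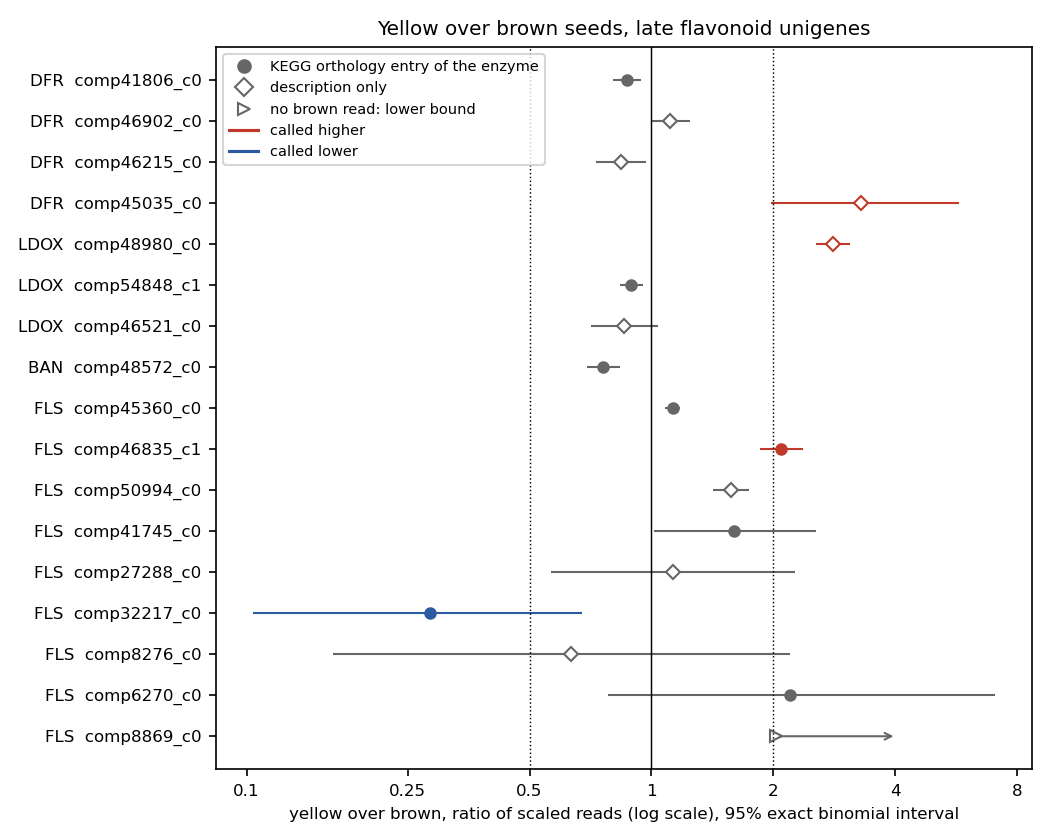
Ratio of yellow over brown reads scaled to the library totals, on a log scale, for each unigene with a fold or a bound; filled circles have the KEGG orthology entry of the enzyme, open diamonds rest on the Swiss-Prot description, bars are 95% exact binomial intervals, dotted lines mark 2-fold and colours mark called unigenes. The unigenes of DFR, LDOX and BAN with a KEGG orthology entry sit between 0.760 and 0.892, while the called *FLS* unigenes stand on opposite sides, at 2.09 and 0.284. The bound, drawn for comp8869_c0, is a fold against the read floor and leaves out counting error.

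Of the unigenes described as DFR without its KEGG orthology entry, comp45035_c0 rose. It had 65 reads (2.52 RPKM, 1.95 to 3.22) in yellow seeds, against 20 reads (0.765 RPKM, 0.468 to 1.18) in brown seeds, a ratio of 3.30 (1.97 to 5.75, log2 ratio 1.67, adjusted p = 1.06e-05 by Fisher's exact test). Its gene lay on A05 at 2534431 to 2536492 on the minus strand, and its best NR hit was a member of the dihydroflavonol 4-reductase family of *Arabidopsis lyrata*, a family that also holds reductases of other substrates.

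The other DFR-described unigenes were not called. The unigene comp46902_c0 on A03 (27391990 to 27393368, minus strand) had 22.3 RPKM in yellow and 20.1 RPKM in brown seeds, a ratio of 1.11 (0.995 to 1.24), and its KEGG orthology entry was farnesol dehydrogenase. The unigene comp46215_c0, also on A03 (24889626 to 24891514, minus strand), had 9.03 RPKM in yellow and 10.7 RPKM in brown seeds, a ratio of 0.840 (0.729 to 0.967, adjusted p = 0.0793 by Fisher's exact test), and its best NR hit was an NAD(P)-binding protein with a Rossmann fold. The short unigene comp409703_c0 of 230 bp on unplaced sequence (133366055 to 133367579, minus strand) had 3 reads in yellow seeds and 0 in brown seeds, both at or under the floor of 3 reads, so no fold is given. Taken by description, the 5 DFR unigenes summed to 71.9 RPKM in yellow and 74.7 RPKM in brown seeds, and DFR proper had the highest level of them in both libraries.

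The 4 FLS-described unigenes without the KEGG orthology entry were also not called. The best covered of them, comp50994_c0, had 11.6 RPKM (10.9 to 12.4, 972 reads) in yellow seeds and 7.39 RPKM (6.82 to 7.99, 627 reads) in brown seeds, a ratio of 1.57 (1.42 to 1.74, adjusted p = 2.01e-17 by Fisher's exact test). With a log2 ratio of 0.65 it lay under the 2-fold threshold and passed at 1.5-fold. Its best NR hit was a 2-oxoglutarate and Fe(II)-dependent oxygenase-like protein, the enzyme superfamily to which both FLS and LDOX belong. The unigene, at 3599 bp, was 2.23 times as long as its assigned gene on A05 (2315042 to 2316653, plus strand), so it holds sequence beyond that gene.

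The others had few reads. The unigene comp27288_c0 on A05 (16363927 to 16365563, plus strand) had 20 reads in yellow seeds and 18 in brown seeds, and comp8276_c0 on C04 (23304734 to 23311292, minus strand) had 5 reads in yellow seeds and 8 in brown seeds. The unigene comp8869_c0 on C09 (46996360 to 46999382, plus strand) had 6 reads in yellow seeds and 0 in brown seeds. Against the 3-read floor this was 2.03-fold, without the counting error of the 6 reads (adjusted p = 0.0816 by Fisher's exact test). The Poisson intervals of its levels overlapped, from 0.236 RPKM in yellow and up to 0.389 RPKM in brown seeds. None of these 3 passed the test.

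**Figure D3:**
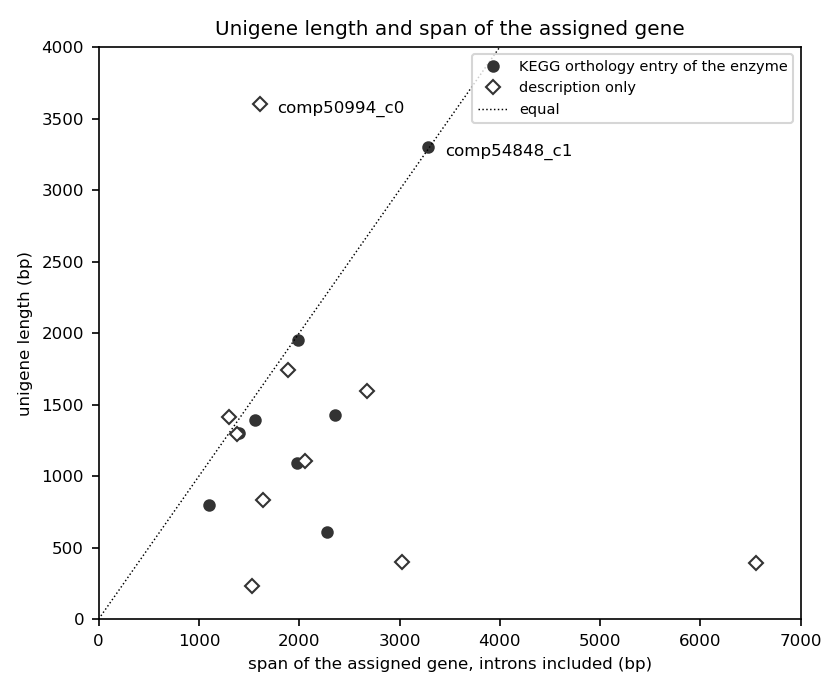
Length of each unigene against the span of its assigned gene, both in bp, with filled circles for unigenes with the KEGG orthology entry of the enzyme, open diamonds for description alone and a dotted line of equality. The 3599 bp of comp50994_c0 stand over a gene of 1612 bp, and comp54848_c1, the unigene with LDOX and a second annotation, lies near equality at 3301 bp.

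Most unigenes were shorter than their assigned gene, and low levels went with short assemblies. The DFR and BAN unigenes, at 1390 and 1303 bp, covered 0.893 and 0.931 of the span of their genes in length, whereas comp8276_c0, comp8869_c0 and comp409703_c0 came to 0.0601, 0.133 and 0.151. The closest neighbours among the members lay on A05 and C09. On A05 comp50994_c0 and comp45035_c0 were 217.8 kb apart, with ratios of 1.57 and 3.30, and on C09 comp46835_c1 and comp8869_c0 were 243.1 kb apart, with more reads in yellow seeds in both.

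Ordered by the mean level of both libraries, comp45360_c0 was followed by DFR, BAN, the LDOX-like comp48980_c0 and comp54848_c1, and each step of this order down to comp54848_c1 was wider than the Poisson intervals of the levels in each library, though not in the same direction in both. In yellow seeds comp48980_c0 stood above DFR and BAN, and in brown seeds it stood below both and below comp54848_c1 and comp46902_c0. From comp27288_c0 down, in yellow seeds, and from comp41745_c0 down, in brown seeds, the intervals of neighbouring unigenes overlapped, so their order is not resolved.

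Over the 14 members with at least 20 reads the median log2 ratio was 0.16, with 8 above and 6 below 0, beside a median of -0.00 over the 29239 unigenes of the table with as many reads. The median was -0.17 over the 7 such members with a KEGG orthology entry and 0.16 over the 7 with a description alone, so its sign depended on which unigenes were counted. Without the fold threshold, 5 of the 18 were higher and 4 lower at an adjusted p under 0.05 by Fisher's exact test, beside 8.57% and 7.3% of all unigenes and 12.1% and 11.4% of those with at least 20 reads. All 18 together took 1.15 times as large a share of the reads in yellow as in brown seeds.

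The neighbouring steps of the pathway were taken from the list of *TT* orthologs. Of 6 unigenes of early enzymes none was called, and the median log2 ratio of the 4 with at least 20 reads was 0.17. Chalcone synthase (CHS, *tt4*), which makes the flavonoid skeleton, had 6441 reads in yellow seeds and 8078 in brown seeds, a ratio of 0.809 (0.783 to 0.836). Flavanone 3-hydroxylase (F3H, *tt6*), which supplies the dihydroflavonols, had 2830 reads in yellow seeds and 2316 in brown seeds, a ratio of 1.24 (1.17 to 1.31). Chalcone isomerase (*tt5*) had a ratio of 1.17 and flavonoid 3'-hydroxylase (*tt7*) a ratio of 1.08, so each of these 4 early unigenes differed by less than 2-fold. A further *tt6* unigene, comp33407_c0, had 5 reads in yellow seeds and 14 in brown seeds, a ratio of 0.362 (0.102 to 1.06), and was not called.

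Of 24 unigenes of regulators 1 was called, with a median log2 ratio of 0.03 over 22. It was the *PAP1* ortholog *BnaCnng28030D* (comp39501_c0), a MYB activator of anthocyanin genes in Arabidopsis, which had 85 reads in yellow seeds and 35 in brown seeds and rose 2.46-fold (1.64 to 3.76, adjusted p = 5.81e-05 by Fisher's exact test). *TT2* (407 reads in yellow and 429 in brown seeds) and *TT8* (437 reads in yellow and 458 in brown seeds), which together with TTG1 activate *BAN* in Arabidopsis, were not called. Of *TT16*, a MADS-box regulator of the pigment layer, the unigene comp46924_c0 had 278 reads in yellow seeds and 471 in brown seeds. Its ratio was 0.599 (0.514 to 0.696), under 2-fold. A further *TT16* unigene, comp40774_c0, had 36 reads in yellow seeds and 42 in brown seeds, a ratio of 0.870 (0.541 to 1.39). None of 12 unigenes of transport, modification and oxidation was called (median log2 ratio 0.02 over 9), and among them were the glutathione S-transferase *TT19* (1.03), the vacuolar transporter *TT12* (0.959) and the laccase *TT10* (1.16), which oxidises proanthocyanidins.

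**Figure D4:**
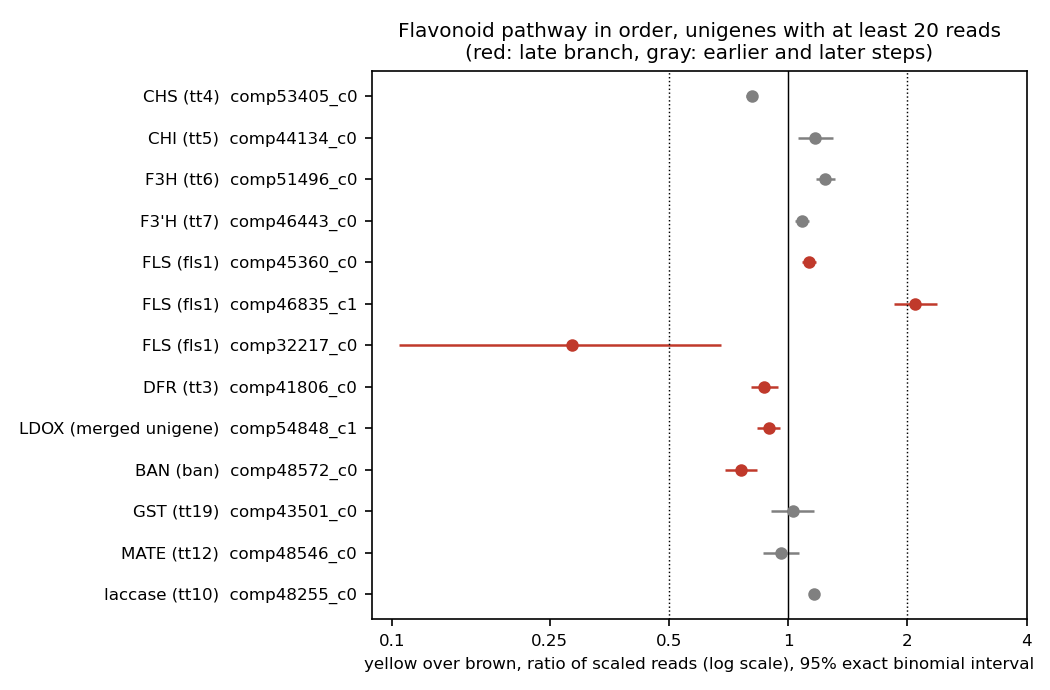
Ratio of yellow over brown scaled reads, on a log scale with 95% exact binomial intervals, for the enzyme, transport and laccase unigenes of listed *TT* orthologs named in the text that had at least 20 reads and the unigene with the LDOX entry, in pathway order, with late branch unigenes in red, earlier and later steps in gray, and dotted lines at 2-fold. Of the unigenes drawn, the *FLS* unigenes comp46835_c1 (2.09) and comp32217_c0 (0.284) lie beyond 2-fold. Chalcone synthase (0.809), DFR (0.870), the unigene with the LDOX entry (0.892), BAN (0.760) and the transporter *TT12* (0.959) also lie below 1.

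Whole seeds hold coat, endosperm and embryo, and in these libraries fewer cells of a type and less RNA per cell cannot be told apart. Of 30 unigenes described as the embryo storage and oil body proteins cruciferin, napin and oleosin, 17 rose and 2 fell in yellow seeds, and their summed level was 2208 RPKM in yellow and 542.2 RPKM in brown seeds. Of 7 seed coat marker unigenes apart from TT12-like transporters none was called, and they summed to 750.4 RPKM in yellow and 740.0 RPKM in brown seeds, most of it from *TT10*. Without the laccase *TT10*, a choice made after seeing the values, the other 5 summed to 198.4 RPKM in yellow and 264.5 RPKM in brown seeds, and the ratio of their scaled reads was 0.727. Of these 5, a peroxidase 36 unigene and 2 COBRA-like protein 2 unigenes were lower at an adjusted p under 0.05 by Fisher's exact test but under 2-fold. With the transporters the seed coat list had 35 unigenes, of which 3 rose and 1 fell, at 1043 RPKM in yellow and 1018 RPKM in brown seeds. None of 8 endosperm marker unigenes was called, and they summed to 36.8 RPKM in yellow and 51.0 RPKM in brown seeds. Most of it came from comp42404_c0, described as transcription factor bHLH95, with 693 reads in yellow and 993 in brown seeds. It was lower (adjusted p = 7.97e-11 by Fisher's exact test) but under 2-fold. Further bHLH95 unigenes had 126 and 50 reads in yellow seeds, against 172 and 66 in brown seeds. Of the endosperm markers described as MEDEA, 2 were at 0 reads in yellow seeds, with 4 and 7 reads in brown seeds. The other MEDEA unigenes had 18, 14 and 10 reads in yellow seeds, against 10, 12 and 10 in brown seeds. The part of these levels in the ratios of the late branch was not tested.

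With 1 library per line, seed-to-seed variation could not be measured. Under an assumed biological coefficient of variation of 0.2 in edgeR's exact test no member was called, and the adjusted p was 0.0509 for comp48980_c0, 0.154 for comp45035_c0, 0.394 for comp46835_c1 and 0.453 for comp32217_c0.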

How the data were processed

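RNA-seq of whole seeds 26 DAP was available for 1 yellow and 1 brown library. The authors removed low-quality reads, built 1 Trinity assembly from both libraries and mapped reads back to its unigenes, with an aligner and counter not given in the sources used here. Estimated counts per unigene are those deposited, unscaled, and were rounded to whole numbers. RPKM values are the authors' own, computed from counts, unigene lengths and library totals. The Swiss-Prot alignment score and the matched gene with its position are as deposited.

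Two-sided Fisher's exact tests were run in SciPy 1.17.1 over all 50366 unigenes with Benjamini-Hochberg adjustment (Python 3.11.15, NumPy 2.4.6, pandas 2.3.3). They were tested on simulated counts with Poisson error alone, so variation between seeds or plants was not part of that check. Library totals, taken as the sum of the counts over all unigenes, were 23236592 in yellow and 23575447 in brown seeds. Of these reads, 92.5% in yellow and 93.3% in brown seeds were in unigenes with an assigned gene. The study used DEGseq, which was not installed, so its random sampling formula was written out as an alternative. Medians used unigenes with at least 20 reads. Counts of 0 were set against 3 reads, and the resulting bound leaves out the counting error of the other library's reads. Other alternatives were TMM scaling and an assumed biological coefficient of variation of 0.2 (edgeR 4.0.16, R 4.3.3), median-ratio scaling (DESeq2 1.42.0), the total over assigned unigenes, other fold, read and pseudocount settings, and other memberships.

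The members, the lists and the markers were chosen with earlier results of these data known. The text names every ortholog, the individually chosen unigenes, the 6 highest members of each enzyme, every called member and those at the threshold. Here all members are given. The *TT* lists come from the study's orthologs, joined by assigned gene, and the seed tissue markers from description words. TT10 and TT12 are in both. AGL62, FIS2, WRKY10, MUM4 and SBT1.7 matched no unigene. No member's sequence was used here.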

Additional observations from a re-analysis of the deposited data

Results flagged for a closer look

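Outside the 18 members, the unigene comp421332_c0, described as dihydroflavonol 4-reductase but without an assigned *B. napus* gene, had 7 reads in yellow seeds and 0 reads in brown seeds, and was called higher (adjusted p = 0.0481 by Fisher's exact test). It was tested along with all unigenes of the table but entered no comparison of the members. It drew attention as signal present in one library and not in the other. Its best NR hit was a putative cinnamoyl-CoA reductase of *Ricinus communis*.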

How the results depend on the processing

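Assuming a biological coefficient of variation of 0.2 (edgeR's exact test), 0 members were called higher and 0 lower, 5 members had an unadjusted p under 0.05, and 348 unigenes of the table were still called higher and 98 lower. With only the genes of the ortholog list, 1 member was called higher and 1 lower, and the median log2 ratio was -0.20. With only members that have a KEGG orthology entry, a choice made after seeing the data, 1 was called higher and 1 lower, and the median was -0.17. With a minimum of 100 reads the median was -0.0062. At a fold threshold of 1.5, comp50994_c0 (log2 ratio 0.65) was added, giving 4 higher and 1 lower, beside 2245 and 1304 over all unigenes, where the 2-fold threshold gave 1650 and 738. Over all members and 8 settings, 144 values kept their direction and 139 were called or not called as before. A call was lost by 4 values, all with the assumed variation, and gained by 1. The DEGseq formula, the assumed variation and the 1.5-fold threshold left the log2 ratios themselves unchanged, so direction could not differ there. It could not differ with a pseudocount either, which is added equally to both libraries. The scalings moved log2 ratios by less than the smallest of the members (0.153 for comp46902_c0). The kept directions are thus no test of the members. The uncalled low-read unigenes comp6270_c0 and comp409703_c0 moved to a log2 ratio of 0.72 and 0.68 with a pseudocount of 5 reads. TMM and median-ratio scaling, the total over assigned unigenes and the DEGseq formula left 3 higher and 1 lower. Leaving out the 2 members longer than 3000 bp, a choice made after seeing the data, did the same. The study itself, with DEGseq at the same limits, reported far fewer differential genes and none among its *TT* orthologs. Its calls were thus not reproduced by the formula written out here, and the reason was not tested. TMM scaling moved log2 ratios by 0.007, median-ratio scaling by -0.021 and the assigned total by 0.013.

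No paired analysis was possible because each line has 1 library and leaving out a library was not run. Depth limits the members under 20 reads most, where an interval such as that of comp6270_c0 (0.780 to 7.05) holds both no difference and a 2-fold one.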

Other observations

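Some unigenes related to the late branch fell outside its rule. The unigene comp34099_c0 on C01, whose best NR hit was dihydroflavonol 4-reductase-like1 of Arabidopsis and whose Swiss-Prot hit was tetraketide alpha-pyrone reductase 1, an enzyme of pollen wall formation in Arabidopsis, had 28 reads in yellow seeds and 15 in brown seeds (adjusted p = 0.192 by Fisher's exact test). The unigene comp25572_c0 on C04, similar to a dihydroflavonol reductase by NR and to UDP-apiose/UDP-xylose synthase by its nucleotide hit, had 46 reads in yellow seeds and 42 in brown seeds. A fragment with a BAN gene of *B. rapa* as its nucleotide hit, comp811_c0, had 0 reads in yellow seeds and 2 in brown seeds. The unigene comp34709_c1, assigned to the same gene on C04 as the member comp8276_c0, had 0 reads in yellow seeds and 7 in brown seeds (adjusted p = 0.0833 by Fisher's exact test).

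The other DFR-described unigenes without an assigned gene, comp368576_c0 and comp478766_c0, had 3 reads each in yellow and 0 in brown seeds, at the floor of 3 reads. Their best NR hits were a cinnamoyl-CoA reductase of *Ricinus communis* and a cinnamyl alcohol dehydrogenase of *Punica granatum*, which are reductases of lignin synthesis.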
